A study of Homo sapiens with 9 samples.

Results

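The genes of the cytosolic ribosome's proteins were followed in TC-32, an established human line of Ewing sarcoma cells, without and with ectopic expression of the transcription factor ETS1. Members were chosen by gene symbol alone: every RPL, RPLP, RPS or RPSA symbol of the standard form in the deposited count table, with no measured value used. The rule found 84 of 58381 genes, 50 with symbols of the large subunit and 34 with symbols of the small subunit. The annotation (GENCODE v44) classes 2 of the 34, RPS10L and RPS5L, as processed pseudogenes. After a filter on low counts, 80 members stood among the 17235 genes tested, 48 and 32 in the 2 subunits. The 4 members that did not pass were RPL10L, RPL3L, RPS10L and RPS5L, and a value of 10 counts for RPL3L was the most that any of them reached in a library.

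TC-32 carries the fusion oncogene EWSR1::FLI1 and all 3 groups keep it. RFP libraries came from TC-32 cells with the lentiviral pLOC vector carrying a red fluorescent protein, and ETS1-Low and ETS1-High libraries from TC-32 cells in which pLOC carried a synthetic ETS1 cDNA. Transduced cells were selected with puromycin and sorted as single cells, and the study's design text describes the ETS1 lines as clones. The study asked what ETS1 regulates while the fusion is present, with ETS1-High set near the ETS1 level of fusion-depleted cells. Each group has 3 libraries. The labels do not give the number of clones or cultures behind a group, so p-values measure the spread between these libraries, which may be technical, and a difference between groups cannot be told apart from a difference between clones.

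A ribosome holds 1 copy of almost every ribosomal protein, and the stalk proteins are the best known exception. The large subunit joins amino acids and the small subunit reads the mRNA. Their mRNAs are short, very abundant and spread over nearly all chromosomes. Many begin with a C followed by a run of pyrimidines, the terminal oligopyrimidine (TOP) start, through which mTOR signalling controls how strongly they are translated. MYC proteins are known activators of ribosome production. Transcription factors of the ETS family, to which ETS1 and FLI1 belong, bind a GGAA core, and such elements are common in ribosomal protein promoters.

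The starts of 12 members to which the results return are shown first, 15 bases on each side of the RefSeq start site (GRCh38.p14), on the strand of the gene. Capitals mark the unbroken pyrimidine run that begins at the start site. RPS29 has a run of a single base and RPS27L has none.
RPL28: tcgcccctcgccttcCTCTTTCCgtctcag
RPL13A: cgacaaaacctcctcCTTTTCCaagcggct
RPLP0: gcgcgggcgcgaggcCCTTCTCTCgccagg
RPLP1: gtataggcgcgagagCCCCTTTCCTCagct
RPLP2: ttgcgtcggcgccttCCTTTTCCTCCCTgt
RPS24: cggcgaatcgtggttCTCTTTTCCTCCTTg
RPL7A: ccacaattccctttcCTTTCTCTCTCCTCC
RPL35: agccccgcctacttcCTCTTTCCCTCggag
RPL36A: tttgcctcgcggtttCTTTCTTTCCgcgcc
RPSA: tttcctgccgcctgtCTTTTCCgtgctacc
RPS29: ccccgagcgcgcagcTggcagcggtggttg
RPS27L: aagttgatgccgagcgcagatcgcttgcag

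These windows lie at chr19:55385917-55385946 for RPL28, chr19:49487593-49487622 for RPL13A, chr12:120201097-120201126 for RPLP0, chr15:69452803-69452832 for RPLP1 and chr11:809952-809981 for RPLP2. Those of RPS24, RPL7A, RPL35 and RPL36A lie at chr10:78033848-78033877, chr9:133348203-133348232, chr9:124861943-124861972 and chrX:101390996-101391025. Those of RPSA, RPS29 and RPS27L lie at chr3:39406705-39406734, chr14:49598696-49598725 and chr15:63157463-63157492. RefSeq windows were matched for 65 of the 84 members. A C followed by pyrimidines, at least 5 in all from the start site, was found in 46 of those 65 (70.8%), against 5.14% of all 27305 genes with a window.

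Library totals ran from 39484704 to 46654734 expected counts. ETS1 stood at 2.00 ± 0.174 CPM (counts scaled to library size by the TMM method, in the usual unit; mean ± SD, n = 3) in RFP, 10.6 ± 0.298 in ETS1-Low and 19.1 ± 0.806 in ETS1-High, in the order of the labels. The 11 Ewing sarcoma markers summed to at least 2822 CPM in every library, while 4 leukocyte markers (1 of them, CD3E, at or near 0 throughout) summed to at most 1.62 CPM, 3 epithelial markers to at most 3.05 CPM and 3 endothelial markers to at most 5.56 CPM. The Ewing sarcoma markers summed to 2822 to 2936 CPM in RFP, 4156 to 4223 in ETS1-Low and 4231 to 4256 in ETS1-High, so the sum was higher in both ETS1 groups. Endothelial markers summed to 1.66 to 2.12 CPM in RFP, 3.56 to 3.99 in ETS1-Low and 4.97 to 5.56 in ETS1-High, epithelial markers to at most 0.187, 1.33 and 3.05 CPM, and leukocyte markers to at most 1.62, 0.244 and 0.635 CPM. The part of these markers in the results below was not tested. Counts from the mitochondrial genome took 6.02% to 6.26% of each RFP library, 7.10% to 7.63% of each ETS1-Low library and 6.64% to 7.29% of each ETS1-High library, and their part was not tested either.

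As a group the members took a larger share of the counts in ETS1-Low and a smaller share in ETS1-High. The share was 6.74%, 6.84% and 6.89% in the RFP libraries, 7.25%, 7.34% and 7.11% in ETS1-Low, and 6.08%, 6.30% and 6.27% in ETS1-High. No library of a group overlapped with those of another group. In CPM the members summed to 64439, 64154 and 65293 in RFP and to 75743, 76173 and 73458 in ETS1-Low, without overlap. The ETS1-High sums of 61707, 64660 and 63594 CPM overlapped with those of RFP. On the FPKM scale, which divides by transcript length, the members held 19.7%, 19.9% and 19.9% of the total in RFP, and the ETS1-Low libraries, the lowest at 19.6%, overlapped with these. ETS1-High, at 18.2% to 18.5%, lay below both. Whether ETS1-Low stood above RFP, and ETS1-High below it, thus depended on the scale, while ETS1-High lay below ETS1-Low on each of the 3 scales. In a bulk sample, a smaller share of these mRNAs cannot be told apart from more RNA of other genes.

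**Figure D1:**
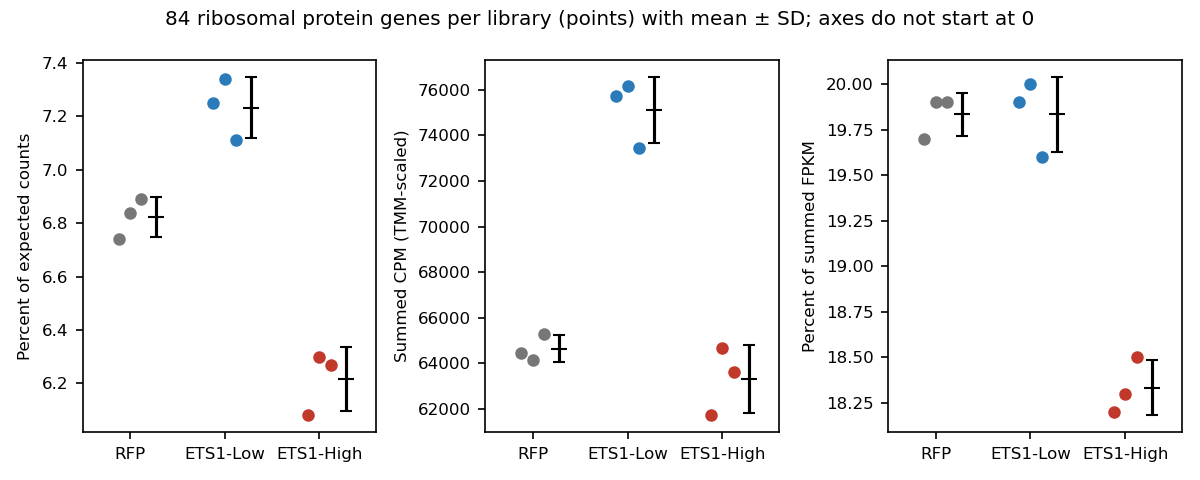
Share of the 84 ribosomal protein genes in each library, as percent of expected counts, as summed CPM with TMM-scaled library sizes and as percent of summed FPKM; points are libraries and bars are mean ± SD. ETS1-High lies below ETS1-Low in all 3 panels, and RFP overlaps with ETS1-High in summed CPM and with ETS1-Low in FPKM.

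Per unit of length the members ranked among the most abundant mRNAs. Their median level in RFP was 1595 FPKM (the authors' values), against 7.25 FPKM over all tested genes. In RFP the level ran from 22.3 ± 1.26 FPKM for RPL39L to 4352 ± 23.5 FPKM for RPL39, both proteins of the exit tunnel region. The median was 1566 FPKM in ETS1-Low and 1369 FPKM in ETS1-High. RPL4, a long tunnel-lining protein, led in ETS1-Low at 4096 ± 13.4 FPKM, and RPL10, which sits near the site where peptide bonds form, led in ETS1-High at 4211 ± 152 FPKM. The ratio of large-subunit to small-subunit counts was 1.63 to 1.66 in the RFP and ETS1-Low libraries and 1.68 to 1.71 in ETS1-High.

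In ETS1-Low against RFP most members were higher. Of the 80 tested, 52 were higher and 14 lower at an adjusted p under 0.05 (edgeR quasi-likelihood test, Benjamini-Hochberg adjustment over all tested genes), where 74.1% of all genes tested passed, 37.9% of them higher and 36.2% lower. The members' median log2 fold change was 0.22, with a range from -0.48 to 1.02, against 0.01 over all tested genes. Only 7 members changed by at least 1.5-fold, against 34.1% of all tested genes. The small subunit gave 24 higher and 5 lower of 32 (median 0.31), and the large subunit 28 higher and 9 lower of 48 (median 0.17). With library totals in place of TMM factors, which shifts the median of all genes by -0.13, the split was 42 higher and 28 lower (60.0% of the calls higher, against 78.8%), and with limma on the FPKM values it was 40 and 28. Under library totals the small subunit still gave 21 higher and 8 lower, but the large subunit 21 and 20.

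The 3 proteins of the stalk, the flexible arm of the large subunit that recruits translation factors, all rose in ETS1-Low. RPLP0, the base of the stalk, stood at 2508, 2519 and 2558 CPM in RFP, 3667, 3660 and 3583 in ETS1-Low, and 2467, 2560 and 2498 in ETS1-High. The ETS1-Low libraries lay above all others, and RFP and ETS1-High overlapped. RPLP0 was 1.44-fold higher in ETS1-Low than in RFP (log2 fold change 0.52 ± 0.030 SE, adjusted p = 9.40e-22). RPLP1, which pairs with RPLP2 on that base, stood at 840, 845 and 887 CPM in RFP, 1440, 1458 and 1330 in ETS1-Low, and 819, 844 and 842 in ETS1-High. Its ETS1-Low libraries also lay above all others, at 0.72 ± 0.032 on the log2 scale above RFP (adjusted p = 1.60e-25). RPLP2 stood at 407, 400 and 408 CPM in RFP, 630, 613 and 604 in ETS1-Low, and 438, 429 and 459 in ETS1-High. Its ETS1-High libraries lay between the other groups, and it was 0.60 ± 0.030 higher in ETS1-Low than in RFP (adjusted p = 4.42e-24).

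The 4 members with the largest rises in ETS1-Low under the naming rule were RPL28, RPS27L, RPL13A and RPLP1. RPL28, a large-subunit protein found in animals but not in yeast, stood at 365, 368 and 386 CPM in RFP, 752, 749 and 765 in ETS1-Low, and 537, 575 and 534 in ETS1-High. The 3 groups were fully separate, and RPL28 was 2.03-fold higher in ETS1-Low than in RFP (log2 fold change 1.02 ± 0.031, adjusted p = 4.66e-33). RPS27L, a p53-responsive paralog of RPS27, stood at 39.6, 39.1 and 37.7 CPM in RFP, 70.2, 68.5 and 64.1 in ETS1-Low, and 45.4, 46 and 44 in ETS1-High. It was 1.74-fold higher in ETS1-Low than in RFP (0.80 ± 0.038, adjusted p = 7.27e-25), with no overlap of libraries. RPL13A, which also takes part in a complex that silences inflammatory mRNAs, stood at 1388, 1414 and 1420 CPM in RFP, 2454, 2452 and 2404 in ETS1-Low, and 2016, 2153 and 2051 in ETS1-High. It was 1.73-fold higher in ETS1-Low than in RFP (0.79 ± 0.030, adjusted p = 8.93e-29), and its ETS1-High libraries again lay in between.

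The 4 with the largest falls in ETS1-Low were RPL35, RPL36A, RPL7A and RPL34, all of the large subunit. RPL35, which lies at the exit of the peptide tunnel, stood at 508, 493 and 509 CPM in RFP, 367, 368 and 346 in ETS1-Low, and 411, 460 and 421 in ETS1-High. All RFP libraries lay above the rest, and the log2 fold change in ETS1-Low was -0.48 ± 0.034 (adjusted p = 3.76e-15). RPL36A, at the site where spent tRNA leaves, stood at 916, 909 and 915 CPM in RFP, 668, 665 and 645 in ETS1-Low, and 758, 816 and 793 in ETS1-High. It was -0.47 ± 0.030 in ETS1-Low against RFP (adjusted p = 9.61e-20), and it shares exons with the read-through gene RPL36A-HNRNPH2, so its reads may have been divided. RPL7A stood at 2245, 2241 and 2279 CPM in RFP, 1656, 1635 and 1626 in ETS1-Low, and 2050, 2146 and 2119 in ETS1-High. It was -0.46 ± 0.029 in ETS1-Low against RFP (adjusted p = 1.22e-19), and the 3 groups did not overlap. RPL34 was -0.41 ± 0.030 (adjusted p = 2.56e-17), at 244, 248 and 233 CPM in ETS1-Low against 319, 318 and 324 in RFP.

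**Figure D2:**
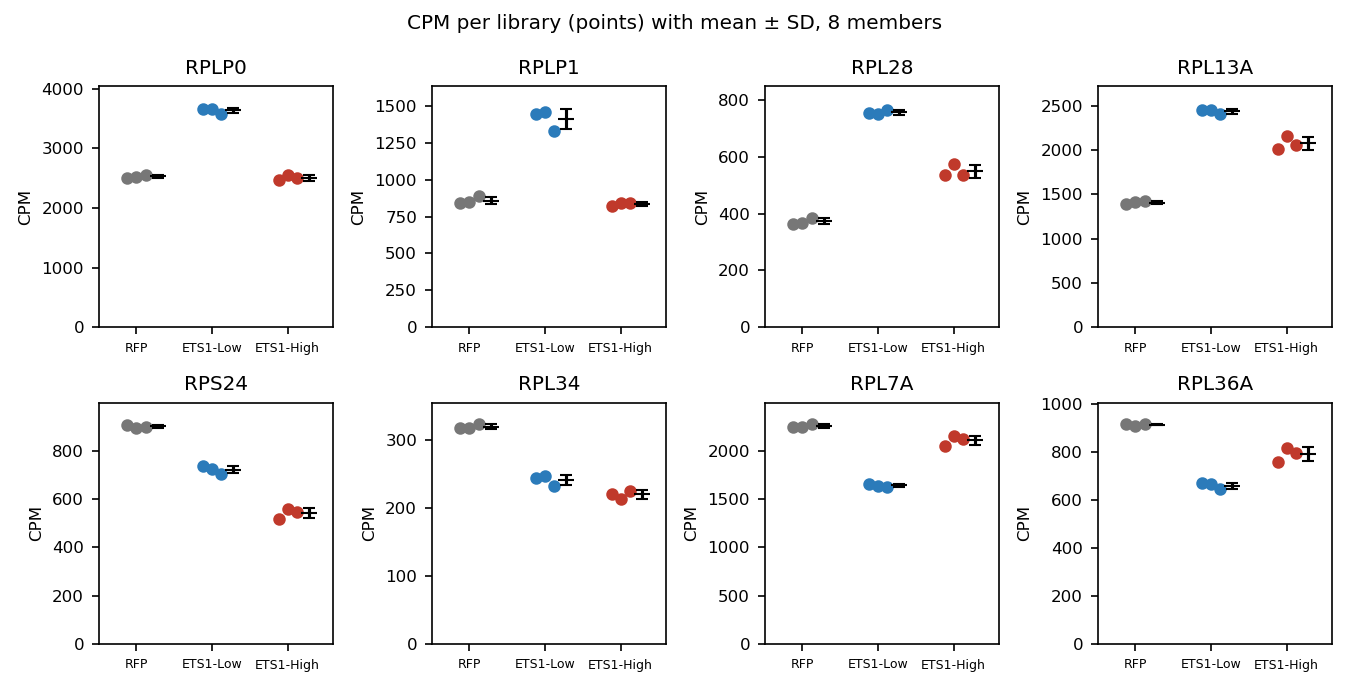
CPM of 8 ribosomal protein genes in each library (points, with mean ± SD), grouped as RFP, ETS1-Low and ETS1-High; each axis starts at 0. RPLP0 and RPLP1 are high in ETS1-Low and overlap with RFP in ETS1-High, RPL28 and RPL13A are intermediate in ETS1-High, RPS24 and RPL34 fall in both ETS1 groups, and RPL7A and RPL36A are lowest in ETS1-Low.

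In ETS1-High against RFP the members moved in both directions, with more of them lower. Of the 80, 26 were higher and 39 lower, where 74.2% of all tested genes passed, 37.0% higher and 37.2% lower. The median log2 fold change was -0.06 (range -0.73 to 0.56), against -0.01 over all tested genes, and it was -0.03 without the first ETS1-High library. A change of at least 1.5-fold was found for 1 member, RPS24, against 34.2% of all tested genes. The large subunit gave 13 higher and 23 lower, and the small subunit 13 and 16. With library totals alone, which shifts the median of all genes by -0.10, the split was 17 higher and 53 lower (24.3% of calls higher, against 40.0%), and with limma on FPKM it was 16 and 52. The RFP libraries serve as controls in both comparisons, so these share them.

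The largest falls in ETS1-High were those of RPS24, RPL34, RPL30 and RPS23. RPS24, a small-subunit protein mutated in some patients with Diamond-Blackfan anaemia, stood at 906, 895 and 900 CPM in RFP, 736, 726 and 704 in ETS1-Low, and 518, 558 and 548 in ETS1-High. The groups were fully separate and followed the order of the ETS1 level, and RPS24 was 1.66-fold lower in ETS1-High than in RFP (log2 fold change -0.73 ± 0.030, adjusted p = 1.96e-27). By mean CPM, 16 of the 80 members fell in the order of the ETS1 level and 3 rose in it. In most others ETS1-Low was highest, with ETS1-High lowest in 31 and RFP lowest in 25. How many of all tested genes followed each order was not counted here, and the place of RFP in an order can change with the scaling. RPL34 stood at 221, 214 and 226 CPM in ETS1-High (-0.54 ± 0.030 against RFP, adjusted p = 5.24e-22). RPL30, a protein that in yeast binds its own transcript, stood at 616, 606 and 632 CPM in RFP, 639, 636 and 620 in ETS1-Low, and 425, 452 and 438 in ETS1-High. RFP and ETS1-Low overlapped, and ETS1-High lay below both (-0.49 ± 0.030 against RFP, adjusted p = 1.04e-20). RPS23, which lies in the decoding centre, stood at 945, 916 and 931 CPM in RFP, 817, 822 and 792 in ETS1-Low, and 661, 667 and 691 in ETS1-High. Its log2 fold change in ETS1-High was -0.47 ± 0.029 (adjusted p = 5.57e-20), with no overlap.

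Among the largest rises in ETS1-High were those of RPL31, RPL13A and RPL28. RPL31, which lies near the exit of the tunnel, stood at 485, 491 and 505 CPM in RFP, 693, 711 and 681 in ETS1-Low, and 711, 734 and 740 in ETS1-High. It was 1.48-fold higher in ETS1-High than in RFP (0.56 ± 0.029, adjusted p = 4.57e-23), and 1.41-fold higher in ETS1-Low (0.49 ± 0.029, adjusted p = 8.03e-21). RPL13A and RPL28 were each 1.47-fold higher in ETS1-High than in RFP (log2 fold change 0.56 for both, adjusted p = 1.53e-22 and 4.48e-22).

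Between the ETS1 groups nearly all members were lower in ETS1-High. Of the 80, 7 were higher and 70 lower in ETS1-High than in ETS1-Low, where 59.2% of all tested genes passed, 29.9% higher and 29.3% lower. The median log2 fold change was -0.26 (range -0.76 to 0.36), against -0.00 over all tested genes. In the small subunit 31 of 32 members were lower, and in the large subunit 39 of 48. Scaling changed this split little, with 8 higher and 67 lower under library totals and 8 and 63 with limma on FPKM. The change was small in size, since 1 member passed 1.5-fold, against 17.9% of all tested genes.

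That member was RPLP1, 1.69-fold lower in ETS1-High than in ETS1-Low (log2 fold change -0.76 ± 0.032, adjusted p = 7.03e-26). RPLP0 was -0.54 ± 0.030 (adjusted p = 1.21e-21) and RPLP2 -0.48 ± 0.030 (adjusted p = 1.39e-19). Against RFP, the ETS1-High values of RPLP0 (-0.01) and RPLP1 (-0.04) did not pass the test, while RPLP2 did at 0.13 (adjusted p = 0.000185). With library totals the rise of RPLP2 was lost (0.02), while RPLP0 (-0.12) and RPLP1 (-0.14) were called lower. With limma on FPKM, RPLP2 turned to -0.01 and was not called, RPLP0 was called lower (-0.14) and RPLP1 (-0.04) did not pass.

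RPS27L, RPS29 and RPL4 followed RPLP1 among the largest falls from ETS1-Low to ETS1-High. RPS27L was lower in ETS1-High (log2 fold change -0.58 ± 0.038, adjusted p = 5.52e-19). RPS29, a zinc-binding small-subunit protein, stood at 137, 133 and 140 CPM in RFP, 185, 197 and 179 in ETS1-Low, and 124, 121 and 131 in ETS1-High. Its log2 fold change from ETS1-Low to ETS1-High was -0.58 ± 0.034 (adjusted p = 9.25e-19), and its 3 groups did not overlap. RPL4 stood at 2019, 2003 and 2053 CPM in RFP, 3057, 3003 and 2979 in ETS1-Low, and 1989, 2127 and 2045 in ETS1-High. It was -0.55 ± 0.030 from ETS1-Low to ETS1-High (adjusted p = 8.10e-22), and its RFP and ETS1-High libraries overlapped.

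The members with the largest rises from ETS1-Low to ETS1-High were RPL7A (0.36 ± 0.029, adjusted p = 2.22e-15), RPL36A (0.26 ± 0.030, adjusted p = 1.40e-10), RPL35 (0.26 ± 0.034, adjusted p = 3.77e-08) and RPS6 (0.18 ± 0.032, adjusted p = 1.81e-06). RPS6 is the small-subunit protein whose phosphorylation by S6 kinases is used as a readout of mTOR activity. It stood at 1468, 1441 and 1449 CPM in RFP, 1163, 1171 and 1088 in ETS1-Low, and 1241, 1346 and 1298 in ETS1-High. All RFP libraries lay above the rest, and RPS6 was lower than in RFP both in ETS1-Low (-0.35 ± 0.032, adjusted p = 4.55e-14) and in ETS1-High (-0.16 ± 0.031, adjusted p = 7.58e-06).

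RPL5 and RPL11, which together with a small ribosomal RNA can bind MDM2 and so stabilise p53, were both higher in ETS1-Low. RPL5 stood at 1216, 1217 and 1225 CPM in RFP, 1454, 1441 and 1397 in ETS1-Low, and 1104, 1160 and 1157 in ETS1-High. It was 0.23 ± 0.029 in ETS1-Low (adjusted p = 1.11e-09) and -0.10 ± 0.029 in ETS1-High (adjusted p = 0.00303) against RFP, and no groups overlapped. RPL11 stood at 866, 873 and 883 CPM in RFP, 1066, 1050 and 1016 in ETS1-Low, and 830, 856 and 868 in ETS1-High. It was 0.26 ± 0.029 in ETS1-Low (adjusted p = 5.22e-11), and in ETS1-High it did not pass the test (-0.04, adjusted p = 0.240) but did with library totals (-0.14).

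RPSA, a small-subunit protein known also as a laminin receptor, stood at 1417, 1413 and 1451 CPM in RFP, 1756, 1780 and 1730 in ETS1-Low, and 1349, 1384 and 1366 in ETS1-High. It was 0.30 ± 0.029 in ETS1-Low (adjusted p = 3.38e-13). In ETS1-High it was -0.06 ± 0.029 (adjusted p = 0.0487), a call lost with, among others, the fit of the 2 groups alone (-0.06) and with no filter on low counts (-0.05). RPS3, at the mRNA entry channel, was 0.39 ± 0.030 in ETS1-Low (adjusted p = 7.53e-17). Its rise in ETS1-High of 0.08 ± 0.030 (adjusted p = 0.0165) turned to -0.03 with library totals and to -0.04 with limma on FPKM. RPS19, the gene most often mutated in Diamond-Blackfan anaemia, stood at 632, 627 and 632 CPM in RFP, 932, 943 and 913 in ETS1-Low, and 728, 735 and 753 in ETS1-High. Its groups were fully separate, with 0.56 ± 0.029 in ETS1-Low (adjusted p = 1.91e-23) and 0.23 ± 0.029 in ETS1-High (adjusted p = 7.04e-10).

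RPL10 stood at 1783, 1748 and 1798 CPM in RFP, 1946, 1959 and 1900 in ETS1-Low, and 2171, 2119 and 2233 in ETS1-High, in the order of the ETS1 level without overlap. It was 0.29 ± 0.030 in ETS1-High (adjusted p = 1.70e-12) and 0.12 ± 0.030 in ETS1-Low (adjusted p = 0.000230), and the latter turned to -0.01 with library totals and with limma on FPKM. RPL22, a large-subunit protein without which mice can live, stood at 590, 572 and 583 CPM in RFP, 775, 748 and 739 in ETS1-Low, and 564, 562 and 581 in ETS1-High. It rose in ETS1-Low (0.38 ± 0.029, adjusted p = 1.69e-16), and in ETS1-High it overlapped with RFP at -0.03 (adjusted p = 0.331), though it was called lower with library totals (-0.14) and with limma on FPKM (-0.12). The difference between the ETS1 groups was -0.41 ± 0.029 (adjusted p = 2.36e-17). RPL3, another protein near the catalytic site, gave 0.31 ± 0.029 in ETS1-Low (adjusted p = 1.16e-13) and -0.00 in ETS1-High (adjusted p = 0.968), where library totals (-0.11) and limma on FPKM (-0.10) called it lower. RPS4X, encoded on the X chromosome, did not pass the test in ETS1-Low (0.06, adjusted p = 0.0654) or in ETS1-High (-0.05, adjusted p = 0.109). With library totals its values were -0.07 and -0.16, and both were called lower.

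The 80 members lie on 21 chromosomes (positions from GENCODE v44 on GRCh38), and 16 of these hold at least 2 members. Against RFP, the called members of a chromosome shared 1 direction on 10 of the 16 in ETS1-Low and 11 of the 16 in ETS1-High. Calls went both ways on the other 6 in ETS1-Low (chromosomes 3, 4, 6, 12, 17 and X) and on the other 5 in ETS1-High (chromosomes 4, 12, 14, 15 and X). From ETS1-Low to ETS1-High they shared a direction on 13 of the 16 and went both ways on chromosomes 2, 9 and X. With library totals the numbers sharing a direction were 8, 11 and 13, in that order of comparisons. Many chromosomes hold few members, and how often their calls would share a direction anyway was not tested. On chromosome 4, for example, the 3 members ran from -0.54 to 0.40 in ETS1-High. The other genes of a chromosome, set beside the members below, were tested non-members whose mean CPM was above 1 on the log2 scale. On chromosome 19, 12 of 12 members were higher in ETS1-Low (median 0.53) and 11 of 12 in ETS1-High (median 0.22), while the other tested genes of that chromosome had medians of 0.31 and 0.32, with 70.0% and 68.5% of them called higher. Under library totals these were 12 of 12 in ETS1-Low but 7 higher and 1 lower in ETS1-High. On chromosome 11, 5 of 5 members were higher in both ETS1 groups, with medians of 0.50 in ETS1-Low and 0.16 in ETS1-High beside 0.36 and 0.33 for other genes (74.2% and 72.4% called higher), though under library totals 2 of the 5 were called higher in ETS1-High. On chromosome 2, 4 of 4 were higher in both (medians 0.38 and 0.30, other genes 0.32 and 0.46, with 74.0% and 79.2% called higher), and under library totals 3 of the 4 in ETS1-High. The 3 members on chromosome 5, RPL37, RPS23 and RPS14, were all lower in both under either scaling, with medians of -0.23 in ETS1-Low and -0.45 in ETS1-High, and the other genes there had medians of -0.40 and -0.36, with 75.1% and 71.2% called lower.

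On other chromosomes the values differed between the ETS1 groups. On chromosome 9, RPS6, RPL35 and RPL7A were lower in ETS1-Low, where the median of the chromosome's other genes was -0.54 and 83.0% of them were called lower. From ETS1-Low to ETS1-High these 3 members were higher, and the others' median was 0.46, with 88.2% called higher. RPL12, the remaining member there and a protein at the base of the stalk, did not follow them and is named after its values were seen. It was at 0.02 in ETS1-Low (adjusted p = 0.517) beside a local median of -0.56, and was called lower from ETS1-Low to ETS1-High (-0.15, adjusted p = 6.38e-05). With library totals and with limma on FPKM, all 4 were called lower in ETS1-Low. On chromosome 15, all 4 members, among them RPS27L, RPL4 and RPLP1, were higher in ETS1-Low, with a median of 0.65 against 0.23 for other genes, 65.2% of which were called higher. All 4 were lower in ETS1-High than in ETS1-Low, with a median of -0.57 against -0.33 for other genes, 80.6% of which were called lower. On chromosome 8, all 4 members were lower in ETS1-High than in RFP, with a median of -0.33 against -0.26 for other genes, 62.9% of which were called lower. How far the surrounding genes account for a member's value was not tested.

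**Figure D3:**
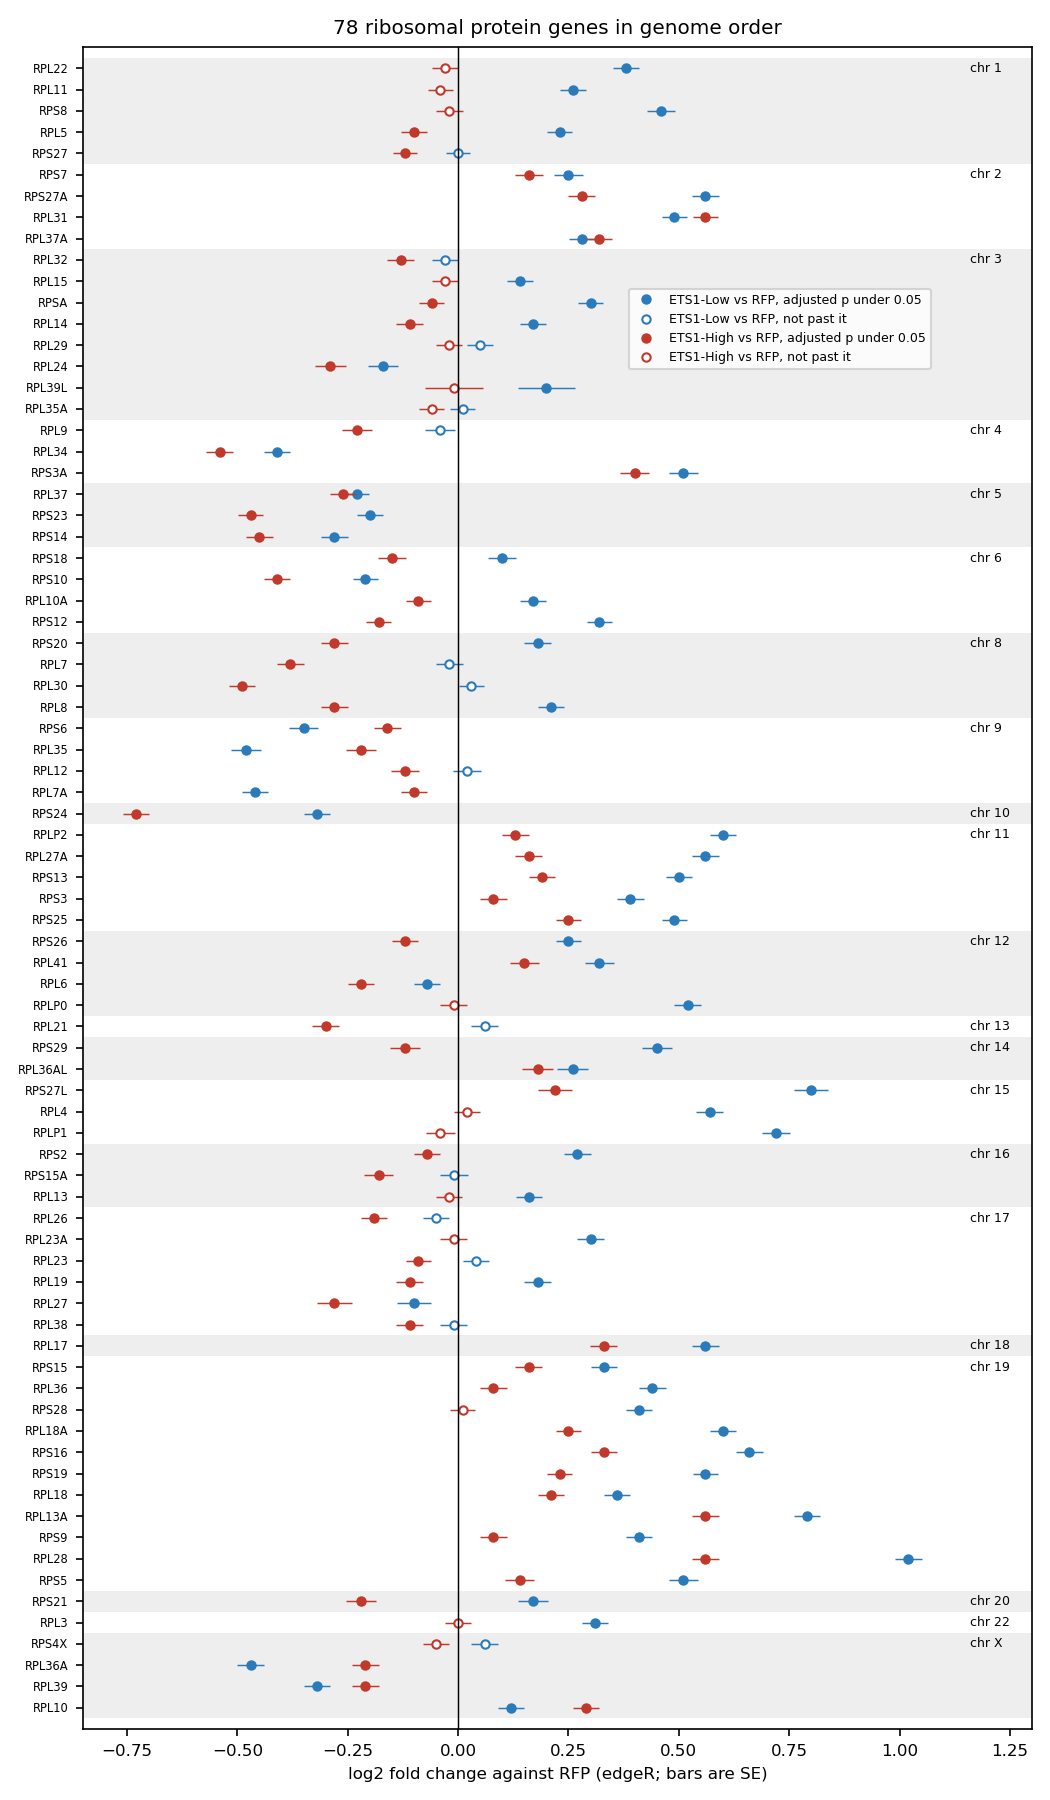
log2 fold change of 78 of the 80 tested ribosomal protein genes against RFP in ETS1-Low (blue) and ETS1-High (red), in genome order with alternate chromosomes shaded; bars are SE, filled points pass the adjusted p of 0.05 and open points do not. The members shown on chromosome 19 lie to the right in ETS1-Low and the 3 on chromosome 5 lie to the left in both groups.

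Members also resembled the genes within 10 Mb on each side of them, counting tested non-members above the same cut on mean CPM. Across the 80 members, the log2 fold change in ETS1-Low against RFP and the median of the other tested genes nearby had a Pearson r of 0.79 and a Spearman rho of 0.78. For ETS1-High against RFP they were 0.80 and 0.76, and for ETS1-High against ETS1-Low 0.79 and 0.65. These are descriptions across genes that share libraries and, for close neighbours, the same surrounding genes. Subtracting the local median narrowed the spread among members from an SD of 0.32 to 0.20 in ETS1-Low and from 0.25 to 0.16 in ETS1-High, both against RFP.

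What was left after that subtraction lay mostly on a single side in each comparison. In ETS1-Low against RFP, 64 members lay above the median of their neighbours and 16 below it, with a median difference of 0.14. In ETS1-High against RFP, 20 lay above and 60 below (median -0.10). In ETS1-High against ETS1-Low, 0 lay above and 80 below (median -0.24). The last comparison includes the members on chromosomes 9 and X that were called higher, such as RPL36A at 0.26 beside a local median of 0.64.

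Single members departed further from their surroundings. RPS24 was at -0.32 in ETS1-Low where its neighbours had a median of 0.23, and at -0.73 in ETS1-High where they had -0.12. RPLP0 was at 0.52 in ETS1-Low beside a local median of 0.01, and RPS29 at 0.45 beside -0.02. RPL28 exceeded its local median of 0.38 by 0.64 in ETS1-Low and its local median of 0.40 by 0.16 in ETS1-High. RPL34 was near its neighbours in ETS1-Low, at -0.41 beside -0.43.

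**Figure D4:**
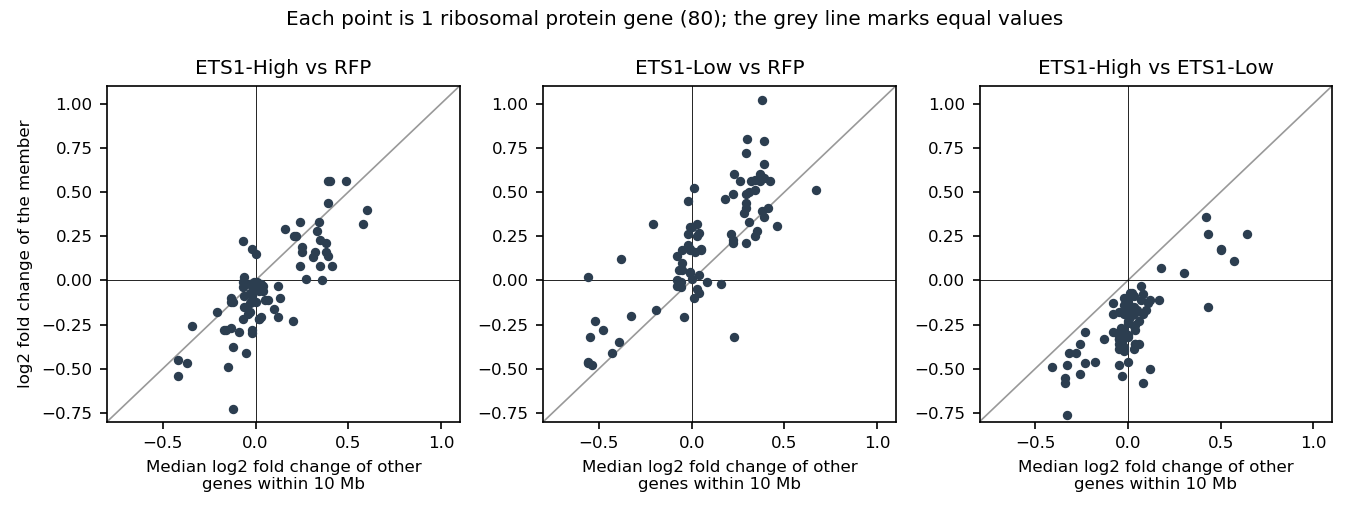
log2 fold change of each of 80 ribosomal protein genes (vertical) against the median log2 fold change of the other tested genes within 10 Mb on each side and above the cut on mean CPM (horizontal), for 3 comparisons; the grey line marks equal values. Points rise from left to right, lie mostly above it in ETS1-Low against RFP, and all 80 lie below it in ETS1-High against ETS1-Low.

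Transcript length moved with the same comparisons. The members are short, with a median canonical transcript of 781 bases, and 46 of 80 have at most 1000 bases. Other protein-coding genes with at most 1000 bases (746 genes) had median log2 fold changes of 0.13 in ETS1-Low against RFP, -0.03 in ETS1-High against RFP and -0.13 in ETS1-High against ETS1-Low. Those with more than 5000 bases (3846 genes) had -0.10, -0.05 and 0.07. The members' medians in the first and the last of these comparisons, 0.22 and -0.26, had the sign of the short genes and not that of the long ones. The part of length in the members' values was not tested.

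Paralog pairs offer a comparison within a library. In 6 pairs both genes passed the filter on low counts, and the minor paralog's share of the pair's FPKM moved in different directions among them. Relative to RFP it was higher in ETS1-Low in the 3 pairs in which both genes are members, lower in 2 of the 3 pairs whose minor paralog lies outside the rule, and overlapped in the last. These shares are given as descriptions, with no test. RPS27L held 2.13%, 2.22% and 2.02% of the RPS27 and RPS27L total in RFP, 3.80%, 3.64% and 3.53% in ETS1-Low, and 2.69%, 2.62% and 2.55% in ETS1-High. RPL36AL held 3.62%, 3.43% and 3.69% of its pair with RPL36A in RFP, 5.80%, 5.75% and 5.93% in ETS1-Low, and 4.56%, 4.65% and 4.65% in ETS1-High. In both pairs the 3 groups did not overlap. RPL39L held 0.498%, 0.490% and 0.541% of its pair with RPL39 in RFP, 0.769%, 0.687% and 0.752% in ETS1-Low, and 0.582%, 0.586% and 0.574% in ETS1-High, also without overlap. The opposite order was seen for RPL22L1, which held 3.97%, 3.14% and 3.22% of its pair with RPL22 in RFP, 2.27%, 2.39% and 2.11% in ETS1-Low, and 2.47%, 2.46% and 2.45% in ETS1-High. RPL26L1 held 3.49%, 3.32% and 3.53% of its pair with RPL26 in RFP, 2.37%, 2.46% and 2.61% in ETS1-Low, and 2.97%, 2.82% and 2.75% in ETS1-High. In both of these pairs all RFP libraries lay above the rest and ETS1-Low was lowest. RPL7L1 held 3.39% ± 0.0660 of its pair with RPL7 in RFP (SD, n = 3) and 3.51% ± 0.0994 in ETS1-Low, which overlapped, and 4.38% ± 0.186 in ETS1-High, above both.

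The major and minor paralogs contributed unequally. RPL36A fell by 0.47 on the log2 scale in ETS1-Low while RPL36AL was higher (0.26 ± 0.035, adjusted p = 5.58e-09). RPL39 was lower in ETS1-Low (-0.32 ± 0.030, adjusted p = 2.01e-13) and RPL39L higher (0.20 ± 0.065, adjusted p = 0.00541), a call that RPL39L lost with library totals (0.07) and with limma on FPKM (0.05). RPS27 did not pass the test in ETS1-Low (-0.00, adjusted p = 0.965) but did with library totals (-0.13), while RPS27L rose. In ETS1-High, RPL36AL was higher than in RFP at 0.18 ± 0.035 (adjusted p = 7.38e-06), and with limma on FPKM that call was lost (0.08). RPL10L and RPL3L, whose partners RPL10 and RPL3 are abundant, summed to 1 and 27 counts over the 9 libraries.

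**Figure D5:**
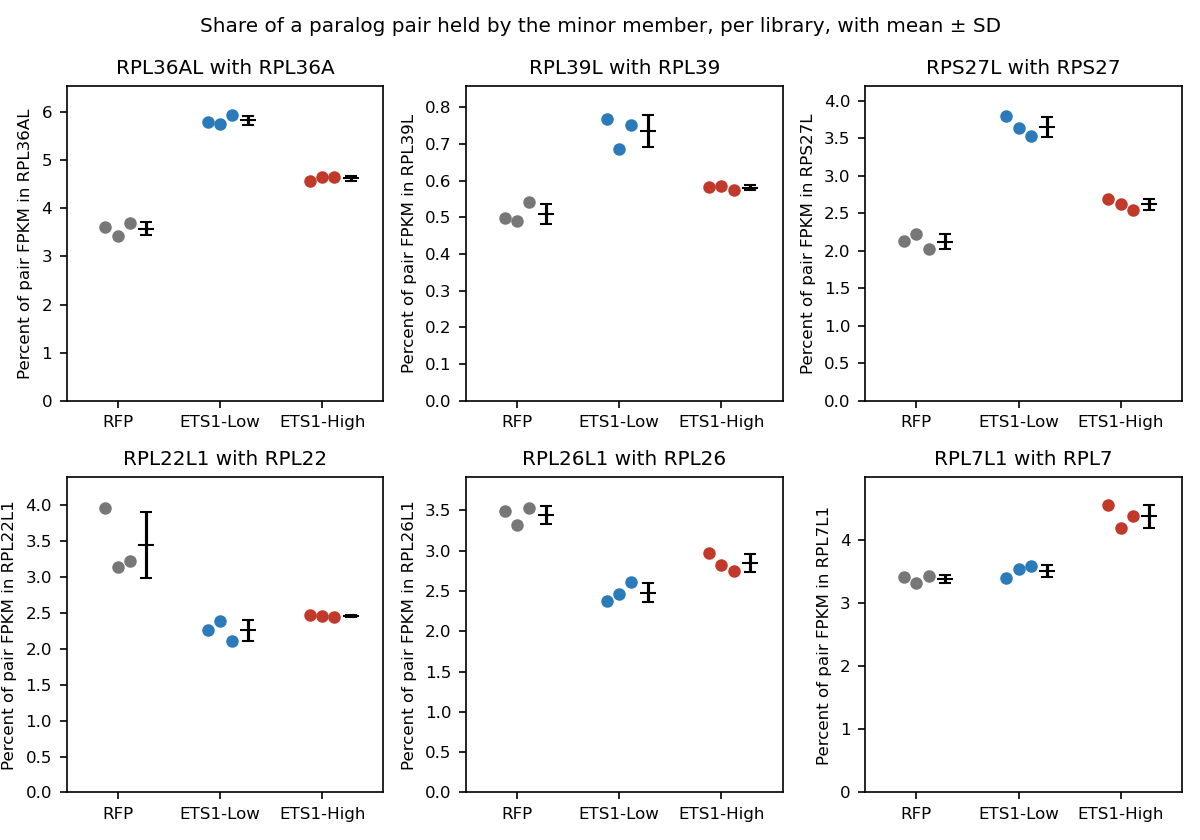
Percent of a paralog pair's summed FPKM held by the minor member in each library (points, with mean ± SD), for 6 pairs; axes start at 0. In the upper row (RPL36AL, RPL39L, RPS27L) ETS1-Low is highest and RFP lowest, for RPL22L1 and RPL26L1 RFP is highest and ETS1-Low lowest, and for RPL7L1 ETS1-High lies above the other 2 groups, which overlap.

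Of 3 tested paralogs whose symbols lie outside the rule, RPL22L1 and RPL26L1 were lower in both ETS1 groups. RPL22L1, a paralog of RPL22 that is often raised when RPL22 is lost, was at 8.71 ± 1.01 CPM in RFP, 7.51 ± 0.301 in ETS1-Low and 6.03 ± 0.178 in ETS1-High. It was lower in ETS1-High (-0.53, adjusted p = 1.93e-07) and in ETS1-Low (-0.21, adjusted p = 0.0177), and the latter was lost without the first RFP library (-0.12) or without the third ETS1-Low library (-0.18). RPL26L1 was lower in both (-0.54 in ETS1-Low, adjusted p = 8.93e-16, and -0.48 in ETS1-High, adjusted p = 4.14e-14). RPL7L1 differed little (0.02 and 0.08, turning to -0.11 and -0.03 with library totals).

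The ETS element CCGGAAG, searched on both strands with no other motif overlapping it in the search, was found in the RefSeq window of 300 bases (250 before the start and 50 after) of 23 of 65 members (35.4%), against 12.2% of all genes with a window. The 100 bases upstream of the start site are shown for 4 members with a match, on the strand of the gene with the match in capitals. With TMM scaling, RPS14 fell and RPL31, RPS27L and RPL27A rose in both ETS1 groups. CTTCCGG is the same element on the opposite strand.
RPL31: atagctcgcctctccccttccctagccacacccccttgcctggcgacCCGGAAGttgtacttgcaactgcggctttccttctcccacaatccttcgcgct
RPS14: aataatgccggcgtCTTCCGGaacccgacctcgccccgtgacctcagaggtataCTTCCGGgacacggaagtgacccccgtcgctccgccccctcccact
RPS27L: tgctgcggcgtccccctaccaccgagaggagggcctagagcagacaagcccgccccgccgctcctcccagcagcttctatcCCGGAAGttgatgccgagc
RPL27A: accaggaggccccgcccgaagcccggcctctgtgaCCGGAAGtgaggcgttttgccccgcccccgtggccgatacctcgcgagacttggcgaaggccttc

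They lie at chr2:101002189-101002288 for RPL31, chr5:150449740-150449839 for RPS14, chr15:63157478-63157577 for RPS27L and chr11:8682692-8682791 for RPL27A (GRCh38.p14). RPL31 rose in both ETS1 groups, as given above. RPS14, which has 2 matches, was lower in ETS1-Low (-0.28 ± 0.030, adjusted p = 1.39e-11) and in ETS1-High (-0.45 ± 0.030, adjusted p = 1.34e-18). RPL27A was higher in both, by 0.56 ± 0.030 (adjusted p = 1.34e-22) and 0.16 ± 0.030 (adjusted p = 7.20e-06). The second of these values rests on the scaling. With library totals the 5 members on chromosome 11, RPL27A among them, had a median of 0.05 in ETS1-High, and 2 were called higher. With limma on FPKM the median was 0.04, also with 2 called higher. RPS14 and RPL27A were chosen for their sequences after their values were seen.

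Members with the element were set beside those without it. Against RFP, the median over the 23 with a match was 0.18 in ETS1-Low and -0.02 in ETS1-High on the log2 scale, and the 41 without had 0.25 and -0.06. Of the 23, 15 were called higher and 4 lower in ETS1-Low, and 10 higher and 9 lower in ETS1-High. Of the 41, these were 26 and 9 in ETS1-Low, and 13 and 20 in ETS1-High. From ETS1-Low to ETS1-High the medians were -0.19 with and -0.26 without. For the TOP start, the 46 members with it had medians of 0.22 in ETS1-Low and -0.04 in ETS1-High, and the 18 without it 0.25 and -0.04. These differences were not tested, and a match in these letters does not show binding.

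Other genes of the translation machinery were counted from lists chosen with earlier results of these data known. The shares over all tested genes, given above, are 37.9% higher and 36.2% lower in ETS1-Low, 37.0% and 37.2% in ETS1-High, and 29.9% and 29.3% between the ETS1 groups. Of 25 tested translation factors with TOP mRNAs, 21 were higher and 2 lower in ETS1-Low (median 0.25), 12 higher and 9 lower in ETS1-High (median 0.05), and 1 higher and 20 lower in ETS1-High against ETS1-Low (median -0.22). Under library totals the first 2 splits were 15 and 5, and 11 and 13. PABPC1, the cytoplasmic poly(A)-binding protein, ran from 1792 ± 27.8 CPM in RFP to 2132 ± 26.6 in ETS1-Low and 1289 ± 52.4 in ETS1-High, and its fall between the ETS1 groups was -0.73 (adjusted p = 2.20e-26). EIF3E, a subunit of initiation factor eIF3, was lower in ETS1-High (-0.52, adjusted p = 1.04e-21), and EEF1B2, an exchange factor of elongation, was higher (0.47, adjusted p = 1.32e-19). EEF1B2 lies on chromosome 2, where its neighbours had a median of 0.48 in ETS1-High. EIF3E and PABPC1 lie on chromosome 8, where the neighbours of each had a median of -0.26 in ETS1-High against RFP. From ETS1-Low to ETS1-High the neighbours of PABPC1 had a median of -0.27.

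Host genes of small nucleolar RNAs, many of which also carry TOP starts, were mostly lower in ETS1-High. Of 12 tested, 10 were lower and 1 higher against RFP (83.3% and 8.33%, median -0.45), while in ETS1-Low 6 were higher and 3 lower (median 0.04), a split that turned to 3 and 6 under library totals. SNHG6 stood at 67.5 ± 1.04 CPM in RFP, 54.2 ± 1.57 in ETS1-Low and 33.4 ± 1.93 in ETS1-High (-1.01 in ETS1-High, adjusted p = 9.97e-29). SNHG5 was lower in ETS1-High (-0.53, adjusted p = 9.38e-21), and its value of 0.10 in ETS1-Low turned to -0.03 with library totals. EPB41L4A-AS1 was lower in both (-0.57 in ETS1-Low, adjusted p = 1.67e-13, and -0.85 in ETS1-High, adjusted p = 2.46e-19).

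Ribosome assembly genes were mixed. Of 36 tested, 9 were higher and 20 lower in ETS1-High (25.0% and 55.6%, median -0.13), and 18 higher and 13 lower in ETS1-Low (median 0.08), the latter turning to 11 and 18 under library totals. TCOF1, the nucleolar protein treacle, was lower in both (-0.50 in ETS1-Low, adjusted p = 1.03e-20, and -0.67 in ETS1-High, adjusted p = 4.82e-26). NHP2, of the box H/ACA particles that guide pseudouridine formation, was lower in ETS1-High (-0.53, adjusted p = 2.06e-21). NOP58, of the box C/D particles that guide RNA methylation, was higher (0.58, adjusted p = 9.36e-23). Of 14 RNA polymerase I genes, 6 were higher and 4 lower in ETS1-High (42.9% and 28.6%) and 7 higher and 6 lower (42.9%) in ETS1-Low, against 6 and 7 in either group under library totals. Their medians of 0.02 and 0.01 were close to those of all tested genes. UBTF, an activator of ribosomal DNA, was higher in both (0.38 in ETS1-Low, adjusted p = 3.03e-12, and 0.54 in ETS1-High, adjusted p = 1.44e-16), as was the promoter factor gene TAF1B (0.96 and 0.95, adjusted p = 1.44e-23 and 1.40e-23). TWISTNB, a polymerase I subunit, was higher in ETS1-High (0.49, adjusted p = 2.12e-16).

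Among 23 regulators linked to MYC and mTOR, 9 were higher and 13 lower in ETS1-High (39.1% and 56.5%) and 7 higher and 12 lower in ETS1-Low (30.4% and 52.2%). Under library totals the splits were 4 and 13, and 5 and 16. MYCN fell from 17.8 ± 0.290 CPM in RFP to 1.18 ± 0.375 in ETS1-Low and 2.30 ± 0.204 in ETS1-High (-3.92 and -2.95, adjusted p = 5.50e-32 and 2.44e-29). MYC, the more abundant of the pair, went from 191 ± 3.24 CPM in RFP to 156 ± 2.53 in ETS1-Low and 149 ± 6.81 in ETS1-High (-0.29 and -0.36, adjusted p = 7.29e-12 and 1.43e-14). PDCD4, an inhibitor of translation initiation, was higher in both (0.73 and 0.66, adjusted p = 4.69e-24 and 1.65e-22). EIF4EBP1, the translation repressor that mTOR inactivates, was lower in ETS1-High (-0.73, adjusted p = 5.74e-23), and in ETS1-Low its value of 0.00 became -0.13 with library totals.

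Ribosomal proteins of mitochondria, encoded in the nucleus by separate genes, were counted in the same way. Of 77 tested, 43 were higher and 18 lower in ETS1-Low (55.8% and 23.4%, median 0.16), 29 higher and 36 lower in ETS1-High (37.7% and 46.8%, median -0.07), and 6 higher and 50 lower in ETS1-High against ETS1-Low (7.79% and 64.9%, median -0.20). Under library totals the first split was 32 and 30 and the second 20 and 42. MRPL17, on chromosome 11, was higher in both (0.65 and 0.62), as was MRPS5, on chromosome 2 (0.64 and 0.62). MRPS27, on chromosome 5, was lower in both (-0.11 and -0.58), and each of these calls had an adjusted p of at most 0.00119. Neither these genes nor the other lists were tested against the cytosolic set.

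Reads of ribosomal protein genes can be shared with processed pseudogenes and overlapping genes, and the values rest on how the authors' counting divided them. In 56 of the 80 tested members the expected count was not whole in any library. The 407 pseudogene rows named after members, apart from the 2 that the rule took as members, held 0.0635% to 0.0795% of a library's counts, and adding them to their parents changed no call in any of the 3 comparisons. On the same strand, 7 tested members overlap another protein-coding gene, among them RPL17, RPS10 and RPL36A with read-through genes, and 26 overlap a gene on the opposite strand. The libraries were made with a stranded kit, but whether strand was used in counting is not given in the sources used here.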

How the data were processed

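RNA-seq of 9 TC-32 libraries, 3 each of RFP, ETS1-Low and ETS1-High by sample title, was used as deposited. The authors deposited RSEM expected counts and FPKM values per gene, per the file headers; FPKM is scaled by the authors to transcript length and library size. The submitters' processing notes name cutadapt 4.4, STAR 2.7.3, featureCounts, Subread 2.0.3, limma 3.38.3 and GRCh38, without roles. The annotation release and the RSEM version are not given in the sources used here. Columns without a library numbered 0.

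Expected counts were rounded and tested with edgeR 4.0.16 (R 4.3.3; TMM, filterByExpr by group, robust quasi-likelihood fit of all 9 libraries, group as the only factor), with Benjamini-Hochberg adjustment over 17235 genes and calls at an adjusted p under 0.05. Levels are CPM on TMM library sizes, and SE is that of the log2 fold change. The script was tested on simulated data. Local medians use at least 20 other tested genes within 10 Mb on each side. For these and for the other genes of a chromosome, only tested non-members with a mean CPM above 1 on the log2 scale were used. Members named singly were, per comparison, the 4 largest rises and falls among called members whose mean reached 100 counts and whose libraries did not overlap, plus a fixed list (some values this rule picked are not reported here), and up to 3 genes of each other list by smallest p in ETS1-High against RFP. The members and lists were chosen with earlier results of these data known. RefSeq windows and GENCODE v44 gave sequences and positions. Alternatives in edgeR were scaling by upper quartiles, by DESeq2 size factors or by library totals, TMM without the members; others were the DESeq2 1.42.0 Wald test, no filter, at least 10 counts in every library, a replicate block, only the groups compared, pseudogene counts added, limma 3.58.1 on log2(FPKM + 1) and log2(FPKM + 0.1), calls of at least 1.5-fold, and leaving out each library. No molecular identifiers are described, so counts are of reads and not of molecules. A chi-square statistic per gene between replicates was 2.66 to 5.19, above the sampling noise, so each library counts once.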

Additional observations from a re-analysis of the deposited data

Results flagged for a closer look

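Of the 80 members, 14 passed the test in opposite directions against the shared RFP libraries, lower in ETS1-High and higher in ETS1-Low. That choice fixes the direction of the difference between the ETS1 groups, which is therefore given as a description, with no test. How many of all tested genes passed in opposite directions was not counted here, so whether 14 of 80 is many cannot be said. Of the 14, 3 are named above: RPL5 differed by -0.33 on the log2 scale between ETS1-High and ETS1-Low, RPS29 by -0.58 and RPSA by -0.36. Against RFP the ETS1-High values were small (-0.10, -0.12 and -0.06), and that of RPSA had an adjusted p of 0.0487 with edgeR.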

How the results depend on the processing

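A minimum of 1.5-fold moved the counts of members called most, and scaling came next. In ETS1-High against RFP, the 26 higher members became 17 with library totals, 16 with limma on log2(FPKM + 1) or log2(FPKM + 0.1) and 15 without a filter on FPKM. In ETS1-Low against RFP, the 14 lower members became 28, 28, 28 and 27. At a minimum of 1.5-fold the counts higher and lower were 0 and 1 in ETS1-High against RFP, 7 and 0 in ETS1-Low against RFP, and 0 and 1 in ETS1-High against ETS1-Low. Leaving out 1 library at a time gave 24 to 26 higher and 36 to 40 lower, 51 to 54 and 12 to 14, and 6 to 7 and 65 to 71, in that order of comparisons. The median fold change kept its sign throughout, at -0.16 to -0.03, 0.06 to 0.24 and -0.28 to -0.20.

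Of 162 single-gene values followed, 10 turned sign with a call in either fit, in each case under library totals or FPKM, given here in that order. In ETS1-Low against RFP they were those of EIF4EBP1 (-0.13 and -0.16), RPL10 (-0.01 for both), RPL30 (-0.10 and -0.12), RPL7L1 (-0.11 and -0.10), RPS4X (-0.07 for both) and SNHG5 (-0.03, library totals only). In ETS1-High against RFP they were RPL4 (-0.08 for both), RPL7L1 (-0.03, and -0.08 or -0.09), RPLP2 (-0.01, FPKM only) and RPS3 (-0.03 and -0.04). Another 8 values turned sign in some alternative with no call in either fit. Leaving out a library was among those alternatives for RPL3 (-0.02 to 0.02), RPL39L (-0.05 to 0.04) and RPLP0 in ETS1-High, RPS27 in ETS1-Low and TAF1B between the ETS1 groups. For MRPL17 (up to 0.09), MRPS5 and PDCD4 (up to 0.11), all between the ETS1 groups, it was not. EIF4EBP1 in ETS1-Low ran from -0.03 to 0.03 without 1 library. The cause was not tested.

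Replicate numbers did not pair the libraries, since deviations of libraries with the same number correlated at -0.0933 to 0.1117. With the replicate block, 26 were higher and 37 lower, 52 and 14, and 7 and 70. Within the main scaling, differences near 0.06 on the log2 scale were at the limit of what these libraries resolve. Library totals moved the median of all genes against RFP by -0.10 in ETS1-High and -0.13 in ETS1-Low. Differences from RFP up to about that size therefore rest on the choice of scaling. Some larger ones lost their call too. In ETS1-High these included RPLP2 (0.13) with library totals and RPL36AL (0.18) with limma on FPKM.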
